A study of Mus musculus with 6 samples.

Results

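Expression of 9 genes that respond to fasting and to the nuclear receptor PPAR alpha was followed across 6 mouse liver libraries: Cyp4a10, Cyp4a14, Acot1, Acot2, Acot3, Acot4, Cpt1a, Ehhadh and Pdk4. The genes were taken by symbol from the deposited gene table, in which all 9 of them were found among 15953 genes, and all 9 passed the low-count filter that left 12033 genes for testing. The libraries came from RNA of liver tissue of C57BL/6 mice, 3 labelled wild type and 3 labelled Cgref1 KO, that is, with the gene for the secreted EF-hand protein Cgref1 knocked out. The labels also give hepatocytes as the cell type. They do not state age, sex, diet, feeding state, time of collection or the design of the knockout allele, and all 6 mice share the strain. The labels name the 3 samples of a group as biological replicates and say no more of their origin, so p-values measure the spread between these samples.

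PPAR alpha is a fatty acid-activated transcription factor that is abundant in hepatocytes. It pairs with the retinoid X receptor, binds direct repeats of the half-site AGGTCA spaced by a single base, and raises the transcription of genes for fatty acid uptake, activation and oxidation when adipose tissue releases fatty acids during a fast. Its classical targets in mouse liver include the microsomal omega-hydroxylases of the Cyp4a family, the peroxisomal bifunctional enzyme Ehhadh, the mitochondrial gatekeeper Cpt1a, the acyl-CoA thioesterases of the Acot family and the pyruvate dehydrogenase kinase Pdk4. For this reason such genes are often read as markers of nutritional state.

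Library totals lay between 17627734 and 18366443 estimated counts. Cgref1 itself was close to the detection limit, at 0.374 to 1.03 CPM (counts scaled to the library total) in wild type livers and 0.404 to 0.699 CPM in knockout-labelled livers, with no difference called (log2 fold change -0.12, SE 0.52, edgeR adjusted p 0.996 in a fit that kept the gene). Genotypes therefore rest on the labels, and groups are called wild type and knockout-labelled. All 12 hepatocyte markers examined were detected in every library. Of 20 intestinal markers, 15 were below the filter, whose sum was 150, 11 and 240 counts over wild type replicates 1, 2 and 3, against 7, 7 and 10 over the knockout-labelled ones. Wild type replicates 1 and 3 thus stood apart by a trace of intestinal RNA in the sum of these 15. Sis, Reg3b, Alpi, Lct, Muc2, Cdh17 and Krt20 were all at 0 in each knockout-labelled library, and Alpi and Lct also in wild type replicate 1. The 5 tested markers were mixed. Fabp2 and Slc5a1 were highest in wild type replicates 1 and 3. Lgals4 was highest in wild type replicate 3, Anpep in wild type replicate 2 (2523 counts) and Tff3 in knockout-labelled replicate 3 (58 counts). Of 8 adipocyte markers in the table, Adipoq, Plin1 and Retn reached at most 2 counts in any library and Cfd 2 to 19, while Plin4 (12 to 48), Cidec (23 to 41), Fabp4 (104 to 186) and Pparg (102 to 478) were detected in each. Among markers of other liver cells, edgeR, DESeq2 and limma-voom called 0, and none of the Kupffer or stellate cell markers was at 0 in any library. Kupffer cell markers had positive log2 fold changes for 10 of 10, with a median of 0.31. They summed to 283 to 313 CPM over wild type and 354 to 382 CPM over knockout-labelled libraries. Of them 6 were higher at an unadjusted p under 0.05, beside 2.95% of all genes. Groups did not overlap for 6, all higher, beside 6.19% of all genes. Stellate cell markers were negative for 8 of 10, with a median of -0.29 and sums of 239.8 to 318 and 208 to 242 CPM. At that p 3 were lower and 1 higher, beside 2.2% and 2.95% of all genes. Groups did not overlap for 2 lower and 1 higher, beside 4.63% and 6.19% of all genes. The part of these cell types in the results was not tested. In bulk tissue, fewer cells of a type and less RNA per cell cannot be told apart.

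The thioesterase genes lie side by side on chromosome 12, and the sequences upstream of a pair of them are shown with those of Cpt1a and Ehhadh as examples of a thioesterase pair, a mitochondrial and a peroxisomal enzyme gene. RefSeq promoter sequences (GRCm38.p6) were matched for 7 of the 9 genes, and not for Cyp4a10 and Cyp4a14. Each line gives the 250 bases before the annotated transcript start, 5′ to 3′ on the gene's strand, with any exact AGGTCA half-site on either strand in capitals.
Acot3 (chr12:84051894-84052143, plus strand): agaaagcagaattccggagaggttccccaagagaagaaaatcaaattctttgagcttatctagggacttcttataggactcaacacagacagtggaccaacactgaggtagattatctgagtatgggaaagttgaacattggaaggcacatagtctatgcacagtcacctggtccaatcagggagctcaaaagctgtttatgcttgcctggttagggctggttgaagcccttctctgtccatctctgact
Acot4 (chr12:84038129-84038378, plus strand): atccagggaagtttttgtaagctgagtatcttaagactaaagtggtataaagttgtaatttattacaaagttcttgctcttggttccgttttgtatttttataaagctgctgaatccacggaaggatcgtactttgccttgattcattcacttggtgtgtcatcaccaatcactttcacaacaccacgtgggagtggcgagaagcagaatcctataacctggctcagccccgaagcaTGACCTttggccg
Cpt1a (chr19:3323051-3323300, plus strand): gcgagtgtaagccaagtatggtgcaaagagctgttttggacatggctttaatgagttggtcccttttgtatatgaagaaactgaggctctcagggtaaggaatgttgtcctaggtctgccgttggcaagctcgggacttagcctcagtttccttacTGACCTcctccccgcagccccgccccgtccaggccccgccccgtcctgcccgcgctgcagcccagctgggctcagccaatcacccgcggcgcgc
Ehhadh (chr16:21787835-21788084, minus strand): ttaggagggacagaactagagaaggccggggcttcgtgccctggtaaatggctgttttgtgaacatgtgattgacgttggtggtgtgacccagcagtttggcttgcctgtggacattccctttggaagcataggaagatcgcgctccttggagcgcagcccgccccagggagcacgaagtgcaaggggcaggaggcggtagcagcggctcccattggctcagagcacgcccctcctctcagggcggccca

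An exact half-site stood in the windows of 2 of the 7 genes, Acot4 and Cpt1a, and 14.0% of 32851 such windows of the genome held one. The Cpt1a window lies inside the deposited Cpt1a gene model (3322325 to 3387996), so its half-site is not upstream of the whole gene. The Acot3 and Acot4 windows both lie inside the deposited Acot3 gene model (84030221 to 84060400), so the Acot3 window is not upstream of that whole model either. The full direct repeat AGGTCANAGGTCA, searched on both strands with up to 2 mismatches at its 12 fixed letters, was found in 1 of the 7 windows and in 3.24% of all windows. That match, TGACCTTTGGCCG, contains the Acot4 half-site and lies at chr12:84038366-84038378, directly before the annotated start and inside the longer Acot4 gene model of the deposited table (84037428 to 84044723). A match is a description of letters in a short window, and elements farther away were not searched.

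The omega-hydroxylase genes Cyp4a10 and Cyp4a14, whose enzymes start the removal of fatty acids through dicarboxylic acids, had lower means in the knockout-labelled group but overlapped between the groups. Cyp4a10 (chromosome 4, 115518287 to 115533649) stood at 846, 455 and 490.3 CPM in wild type replicates 1, 2 and 3 and at 571, 363 and 204 CPM in knockout-labelled replicates 1, 2 and 3. Wild type replicate 1 was the highest library and knockout-labelled replicate 3 the lowest, while knockout-labelled replicate 1 exceeded both of the other wild type libraries. The group levels were 597 ± 216 and 379 ± 184 CPM (SD, n = 3), a log2 fold change of -0.66 (SE 0.45) with an edgeR adjusted p of 0.984.

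Cyp4a14 (chromosome 4, 115473790 to 115499076) showed the same order of extremes over a wider range. Its levels were 920.2, 352 and 517 CPM in wild type livers and 497, 179 and 50.6 CPM in knockout-labelled livers. The highest knockout-labelled library was 9.81-fold above the lowest, whereas the wild type libraries spanned 2.62-fold. The log2 fold change was -1.30 (SE 0.94), with a 95% confidence interval of -3.79 to 1.19 and an edgeR adjusted p of 0.984. The interval covers both a large fall and a rise, so these 6 libraries do not fix the direction for this gene. Per length, the FPKM ratio of Cyp4a14 to Cyp4a10 was 0.902, 0.641 and 0.876 in wild type livers and 0.722, 0.410 and 0.207 across knockout-labelled replicates 1, 2 and 3. The genes thus did not vary in proportion. Cyp4a10 is 95.7% and 97.2% identical to Cyp4a31 and Cyp4a32 over the aligned transcript bases, which makes the split of its reads uncertain. Of its 100-base stretches, 5.4% and 9.8% are shared with these genes. The summed level of these 3 genes was 631 ± 217 CPM in wild type livers and 418 ± 192 CPM in knockout-labelled livers (SD, n = 3), and the groups overlapped in the sum as well. Cyp4a31 stood at 4.09 to 6.24 CPM and Cyp4a32 at 21.0 to 41.2 CPM. The sum is thus mostly Cyp4a10 and no separate check on it.

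**Figure D1:**
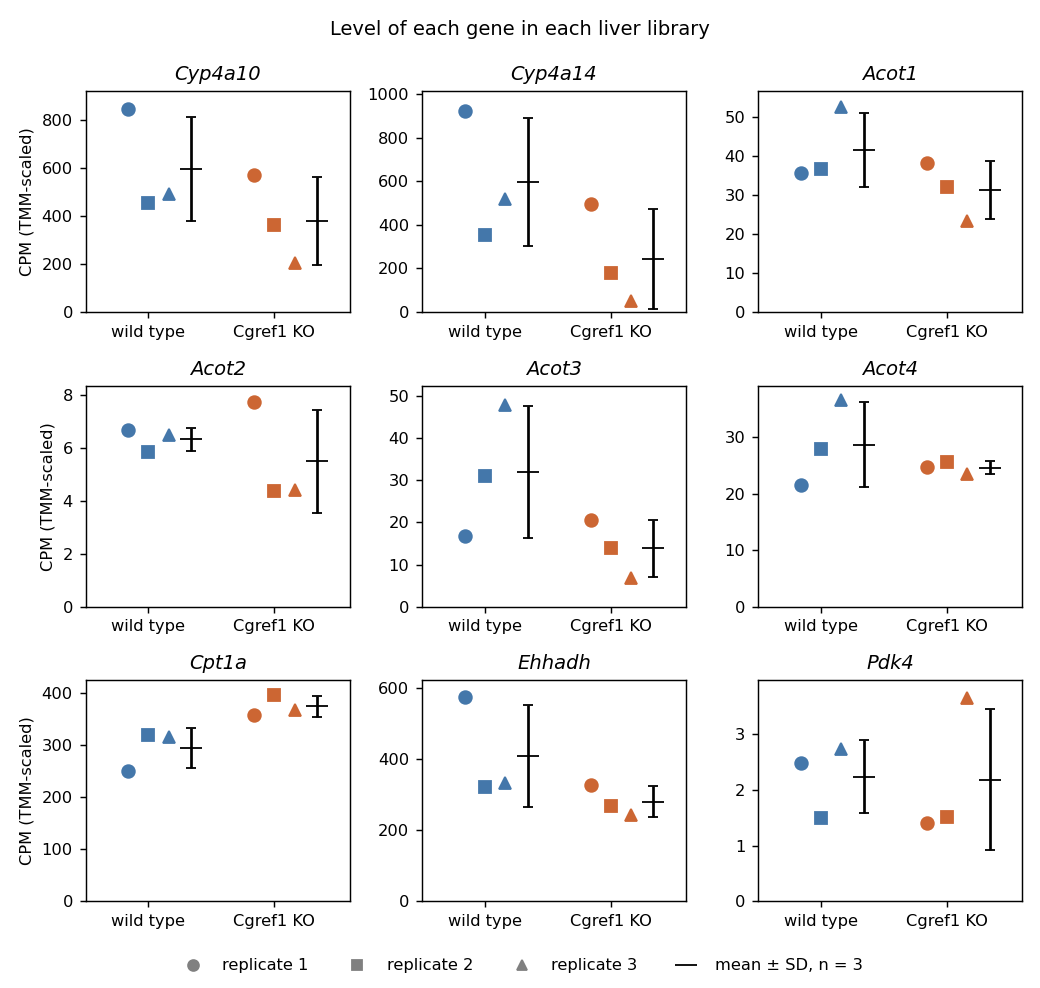
Level of each of the 9 genes in CPM (vertical axes, linear from 0, a separate scale for each gene) in the 3 wild type (blue) and 3 knockout-labelled (orange) libraries, with the replicate number as the marker shape and the mean ± SD (n = 3) in black. The groups overlap for 8 genes; Cpt1a is the exception, with 357 to 396 CPM in knockout-labelled against 249 to 318 CPM in wild type libraries.

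Ehhadh (chromosome 16, 21761285 to 21787834), the peroxisomal enzyme that carries out the middle steps of beta-oxidation, followed the Cyp4a genes in its extremes. Its levels were 575, 322 and 332 CPM in wild type replicates 1, 2 and 3 and 328, 268 and 244 CPM in knockout-labelled replicates 1, 2 and 3. Wild type replicate 1 lay well above every other library, and knockout-labelled replicate 1 fell between the remaining wild type libraries. The group levels were 409.6 ± 144 and 279.8 ± 43.3 CPM (SD, n = 3), with a log2 fold change of -0.55 (SE 0.24) and an edgeR adjusted p of 0.964. Without wild type replicate 1 the log2 fold change was -0.23. The authors' deposited table gave Ehhadh a log2 fold change of -0.55, a p-value of 0.00880 and a q-value of 0.743.

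The type I thioesterases split acyl-CoA into free fatty acid and coenzyme A, Acot1 in the cytosol, Acot2 in mitochondria and Acot3 and Acot4 in peroxisomes. All 4 had negative log2 fold changes, and none passed the edgeR threshold. Acot3 differed most in its means. It stood at 16.8, 31.1 and 47.9 CPM in wild type livers, and at 20.6, 14.0 and 6.89 CPM in knockout-labelled replicates 1, 2 and 3. Knockout-labelled replicate 1 exceeded wild type replicate 1, so the groups overlapped by that pair of libraries. The means were 31.9 ± 15.6 and 13.8 ± 6.85 CPM (SD, n = 3), with a log2 fold change of -1.21 (SE 0.56), a 95% confidence interval of -2.64 to 0.22 and an edgeR adjusted p of 0.973. The authors' deposited table gave Acot3 a log2 fold change of -1.21, a p-value of 0.0416 and a q-value of 0.999.

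Acot1, the most abundant of the thioesterases here, had 35.8, 36.7 and 52.6 CPM in wild type livers and 38.3, 32.1 and 23.4 CPM in knockout-labelled livers (log2 fold change -0.41, SE 0.21). Wild type replicate 3 was the highest library for Acot1, Acot3 and Acot4 alike, at 36.4 CPM for Acot4 against 21.6 to 27.9 CPM in the remaining wild type libraries. Acot4 was nearly flat in the knockout-labelled group, at 24.7, 25.6 and 23.4 CPM (log2 fold change -0.22, SE 0.17). Acot2 was low, at 5.84 to 6.68 CPM in wild type livers and 7.75, 4.36 and 4.41 CPM in knockout-labelled replicates 1, 2 and 3 (log2 fold change -0.20, SE 0.24). Its highest library was thus a knockout-labelled one.

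Transcripts of these thioesterases resemble each other, and the deposited gene models overlap. Acot1 and Acot2 were 94.3% identical over 1330 aligned transcript bases and shared 16.5% of the 100-base stretches of Acot1, and Acot1 and Acot3 were 85.2% identical. The deposited model of Acot2 runs from 83987590 to 84017670 on chromosome 12 and so covers Acot1 (84009502 to 84017670), and the model of Acot3 (84030221 to 84060400) covers Acot4. Single values in the cluster are therefore uncertain. Summed over Acot1 to Acot4, the levels were 80.9, 101 and 143 CPM in wild type livers and 91.3, 76.1 and 58.1 CPM in knockout-labelled livers, and the groups overlapped in this sum too.

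Cpt1a (chromosome 19, 3322325 to 3387996), which makes acylcarnitines for entry into mitochondria, was the exception to the lower means. It stood at 249, 318 and 315 CPM in wild type livers, and at 357, 396 and 368 CPM in knockout-labelled replicates 1, 2 and 3. Every knockout-labelled library lay above every wild type library. The means were 294 ± 38.7 and 374 ± 20.1 CPM (SD, n = 3), the log2 fold change was 0.35 (SE 0.12), and the 95% confidence interval ran from 0.08 to 0.61. The unadjusted p was 0.0147 and the edgeR adjusted p 0.903, so the difference did not pass over all genes. The authors' deposited table gave Cpt1a a log2 fold change of 0.34, a p-value of 0.00899 and a q-value of 0.743. Wild type replicate 1, the library highest in Cyp4a10, Cyp4a14 and Ehhadh, was the lowest in Cpt1a.

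Pdk4 (chromosome 6, 5483351 to 5496278), which switches off pyruvate dehydrogenase and so spares glucose during a fast, was barely detected. Its libraries held 45, 28 and 50 counts in wild type livers and 24, 26 and 66 counts in knockout-labelled replicates 1, 2 and 3. The last of these, knockout-labelled replicate 3, was the highest for Pdk4 and the lowest for Cyp4a10, Cyp4a14, Acot1, Acot3 and Ehhadh. The levels were 2.23 ± 0.657 and 2.18 ± 1.26 CPM (SD, n = 3), with a log2 fold change of -0.03 (SE 0.41) and a 95% confidence interval of -0.94 to 0.89. The related kinase gene Pdk2 stood at 117 to 157 CPM over the 6 libraries (log2 fold change 0.05, SE 0.12) and Pdk1 at 76.6 to 119 CPM (log2 fold change -0.34, SE 0.13). Of 4 other Cpt1 and Pdk genes tested, edgeR, DESeq2 and limma-voom called 0. At an unadjusted edgeR p under 0.05, 1 was higher (Pdk3, below 1 CPM) and 1 lower (Pdk1), beside 2.95% and 2.2% of all genes. At these counts the interval for Pdk4 covers close to 2-fold in either direction.

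**Figure D2:**
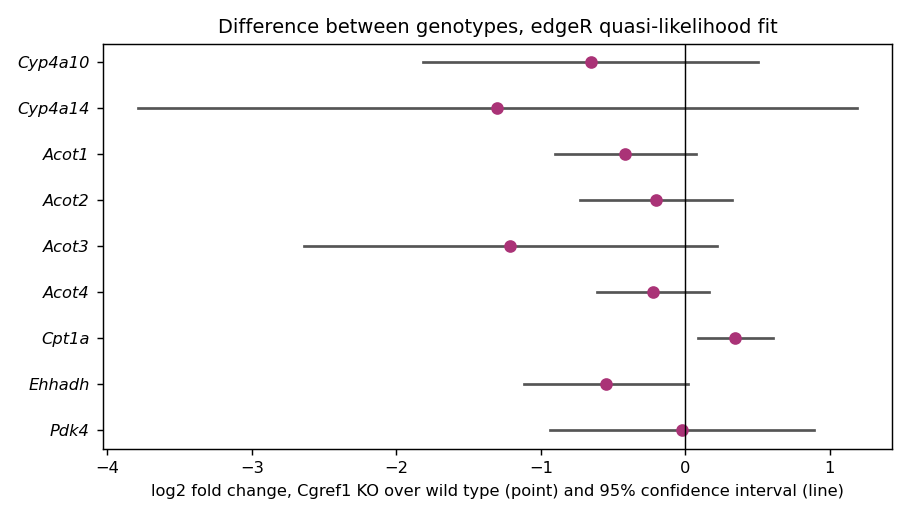
Log2 fold change of knockout-labelled over wild type libraries for the 9 genes (points, horizontal axis) with the 95% confidence interval of the edgeR fit (lines) and 0 marked by a vertical line. The interval of Cpt1a lies above 0 at 0.08 to 0.61, and those of the other 8 genes include 0.

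Across the 9 genes, edgeR's quasi-likelihood test called 0 after Benjamini-Hochberg adjustment over all 12033 genes, and DESeq2 and limma-voom also called 0 of them. Over all genes tested, edgeR called 0.00831%. In the edgeR fit at an unadjusted p under 0.05 there was 1 gene of the 9, Cpt1a, against 5.15% of all genes, of which 2.95% were higher and 2.2% lower. Which genes fell under that unadjusted p depended on the tool, the scaling and the use of a block. With DESeq2 they were Cpt1a (higher, 0.0104) and Ehhadh (0.00892), Acot3 (0.0410) and Acot1 (0.0433), all lower. With edgeR scaled by library totals alone they were Ehhadh (0.0227) and Acot1 (0.0455), both lower, while Cpt1a stood at 0.0639. With the replicate number as a block in edgeR they were Ehhadh (0.00112) and Cyp4a10 (0.00407), both lower, and Cpt1a (higher, 0.00455). Their edgeR adjusted p values in that fit were 0.141, 0.228 and 0.241. The 5.15% of all genes belongs to the main edgeR fit alone. No matching share is given for these other settings, so their counts are not read against a background. Groups did not overlap for 1 of the 9, again Cpt1a and again higher, against 10.8% of all genes, of which 6.19% were higher and 4.63% lower. Log2 fold changes were negative for 8 of the 9, with a median of -0.41, beside a median of 0.00 and 50.5% negative over all genes tested. The sign of Pdk4 depended on single libraries, being positive (0.21) without knockout-labelled replicate 1. The genes were chosen with results of these data known and share libraries, so this count is a description. The median was -0.22 without wild type replicates 1 and 3, the libraries with intestinal RNA, and -0.59 without knockout-labelled replicate 1. The part of the intestinal RNA in these values was not tested.

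The libraries ranked differently for different genes. Wild type replicate 1 was the highest library for Cyp4a10, Cyp4a14 and Ehhadh, with deviations of 0.92, 1.61 and 0.80 from each gene's mean log2 CPM. The same library deviated by -0.40 in Cpt1a, -0.28 in Acot4 and -0.19 in Acot3. Wild type replicate 3 led in Acot1, Acot3 and Acot4. Knockout-labelled replicate 3 had deviations of -1.13, -2.57 and -1.46 in Cyp4a10, Cyp4a14 and Acot3, and of 0.78 in Pdk4. The 9 genes thus did not place the 6 livers in one order.

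**Figure D3:**
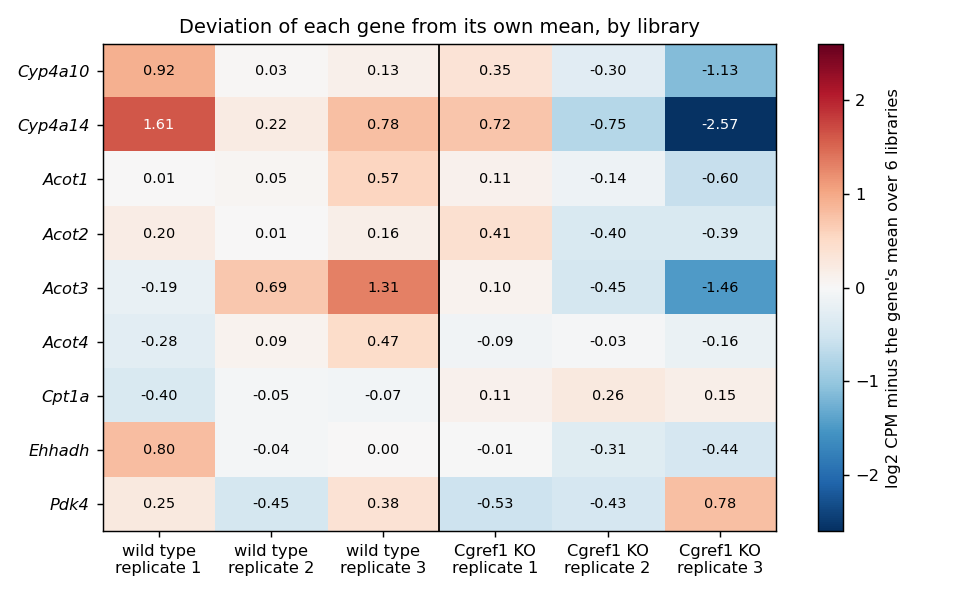
Deviation of log2 CPM from each gene's own mean over the 6 libraries (color and printed value), with genes in rows, libraries in columns and a line between the genotypes. Cyp4a14 runs from 1.61 in wild type replicate 1 to -2.57 in knockout-labelled replicate 3, whereas Cpt1a stays between -0.40 and 0.26.

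Spread between livers of one genotype was large for most of these genes. The pooled within-genotype SD of log2 CPM was 1.27 for Cyp4a14, 0.77 for Acot3, 0.63 for Cyp4a10 and 0.60 for Pdk4, beside a median of 0.19 over all genes tested. Cyp4a14 was more variable than 99.6% of the genes tested, Acot3 than 97.9% and Cyp4a10 than 96.1%. Against the 388 genes with a mean within 2-fold of its own, Cyp4a10 was more variable than 98.4%. Cpt1a, at 0.15, was more variable than 36.4% of all genes tested, and than 59.2% of the 602 genes with a mean within 2-fold of its own. Acot1, Acot2, Acot4 and Ehhadh lay between, at 0.27 to 0.37. The narrow spread of Cpt1a went with the narrowest interval of the 9, even though its difference was smaller in size than that of 5 of the others.

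**Figure D4:**
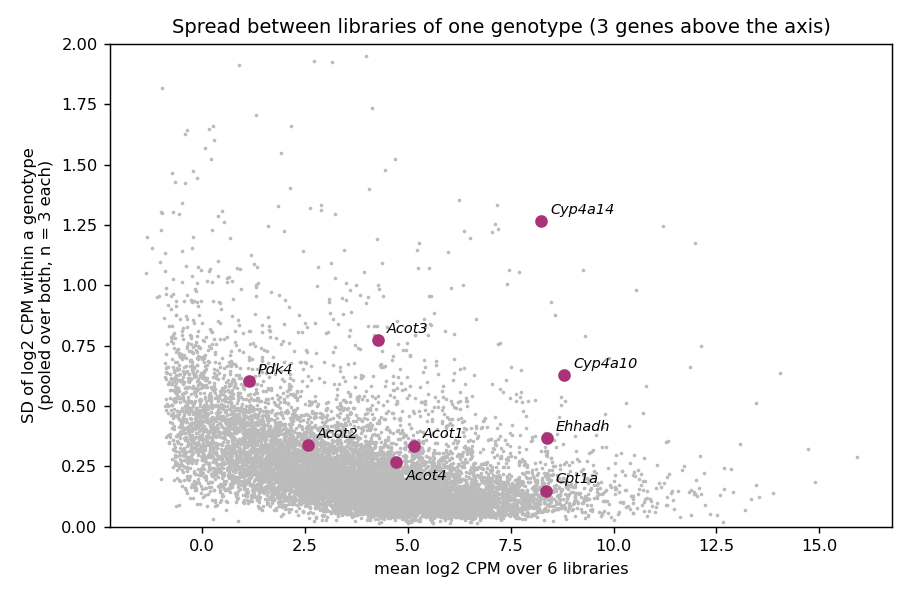
Within-genotype SD of log2 CPM (vertical axis, pooled over both groups of n = 3) against mean log2 CPM over the 6 libraries (horizontal axis) for 12033 genes tested (grey) and the 9 genes (purple); 3 grey genes lie above the axis. Cyp4a14 at 1.27 and Cyp4a10 at 0.63 stand high among genes of their abundance, and Cpt1a at 0.15 sits within the bulk.

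Compared per length, the deposited FPKM values placed the genes over a wide range. The mean over the 6 libraries was 255 FPKM for Cyp4a10, 182 for Cyp4a14, 122 for Ehhadh and 80.6 for Cpt1a. The thioesterases followed with mean levels of 26.3 FPKM for Acot1, 12.5 for Acot4, 9.19 for Acot3 and 2.91 for Acot2, and Pdk4 was last at 0.67 FPKM. Cyp4a10 exceeded Cyp4a14 in 6 of 6 libraries, although the ranges of their levels overlapped. Cyp4a14 exceeded Ehhadh, and Ehhadh exceeded Cpt1a, in all 3 wild type libraries but in 1 of the 3 knockout-labelled libraries each. In FPKM the ratio of Ehhadh to Cpt1a was 3.37, 1.47 and 1.54 in wild type livers and 1.34, 0.988 and 0.965 in knockout-labelled replicates 1, 2 and 3. Each knockout-labelled ratio was below each wild type ratio, with Cpt1a, whose own levels did not overlap, as the divisor. The ratio of Cyp4a10 to Cpt1a overlapped between the groups. It was 7.32, 3.07 and 3.35 in wild type livers and 3.44, 1.97 and 1.19 in knockout-labelled replicates 1, 2 and 3. Acot4 exceeded Acot3 in 5 of 6 libraries, and the FPKM ratio of Acot3 to Acot4 was 0.652, 0.948 and 1.13 over wild type replicates 1, 2 and 3 and 0.702, 0.460 and 0.25 over the knockout-labelled ones.

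No difference was called for the receptor and its partners. Ppara, the receptor gene, stood at 230 to 272 CPM in wild type livers and 225 to 305 CPM in knockout-labelled livers (log2 fold change 0.04, SE 0.13), and its partner Rxra at 337 to 404 and 398 to 413 CPM (log2 fold change 0.13, SE 0.10). Of 11 receptor and coregulator genes tested, edgeR called 0, DESeq2 0 and limma-voom 0. At an unadjusted edgeR p under 0.05, 0 were higher and 1 lower, beside 2.95% and 2.2% of all genes. Groups did not overlap for 0 higher and 1 lower, beside 6.19% and 4.63% of all genes. In both counts the lower gene was Pparg, the adipogenic relative of the receptor. It stood at 26.4, 18.5 and 12.5 CPM in wild type livers and 12.1, 11.6 and 5.62 CPM in knockout-labelled livers (log2 fold change -0.97, SE 0.38, edgeR adjusted p 0.944). Lpin1, a phosphatidate phosphatase and coactivator, had 69.0, 111 and 222 CPM in wild type livers and 265, 233 and 209.8 CPM in knockout-labelled livers (log2 fold change 0.82, SE 0.45). Wild type replicate 1 was again at an extreme, here the lowest.

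Other PPAR alpha targets were about evenly divided between higher and lower values. Of 34 further targets 33 were tested, and edgeR, DESeq2 and limma-voom each called 0. The log2 fold changes were positive for 15 and negative for 18, with a median of -0.01 and a range of -0.84 to 0.33. At an unadjusted p under 0.05, 2 were higher and 0 lower, beside 2.95% and 2.2% of all genes. These were Creb3l3, a liver transcription factor gene, at 225 to 272 CPM in wild type livers and 303 to 313 CPM in knockout-labelled livers (log2 fold change 0.32, SE 0.10), and the peroxisomal thiolase gene Acaa1a (0.30, SE 0.13). Groups did not overlap for 5 of the 33, all higher (Creb3l3, Acaa1a, Cpt2, Eci2 and Acsl1), and for 0 lower. Over all genes the shares were 6.19% higher and 4.63% lower. Fabp1, the abundant gene for liver fatty acid-binding protein, had a log2 fold change of -0.13 (SE 0.12). Fgf21, the fasting hormone gene, was below the filter. Of the genes that the deposited table assigns to the KEGG pathway of PPAR signalling, 61 that are not among the 9 were tested, with 31 positive and 30 negative values and 0 calls by edgeR. DESeq2 called 1 of them, the desaturase gene Scd1. At an unadjusted edgeR p under 0.05, 6 of the 61 were higher and 5 lower, beside 2.95% and 2.2% of all genes. Groups did not overlap for 8 higher and 3 lower, beside 6.19% and 4.63% of all genes.

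None of the tested relatives of the 9 genes was called. Of 9 other thioesterase genes tested, edgeR, DESeq2 and limma-voom called 0, and 1 was lower at an unadjusted p under 0.05, beside 2.2% of all genes. That gene was Acot13, a mitochondrial thioesterase, at 59.7, 55.9 and 59.4 CPM in wild type livers and 47.9, 42.4 and 43.7 CPM in knockout-labelled livers (log2 fold change -0.39, SE 0.09, unadjusted p 0.00192, edgeR adjusted p 0.739). Groups did not overlap for 3 of these 9 thioesterase genes, all lower, beside 4.63% of all genes. Besides Acot13 these were Acot6, which was below 1 CPM in every library, and Acot9, which was named after its values were seen (log2 fold change -0.46, SE 0.23). The liver-enriched Acot12 and Baat had log2 fold changes of 0.00 (SE 0.09) and 0.00 (SE 0.10). Among 12 other Cyp4 genes tested, edgeR, DESeq2 and limma-voom called 0, and 10 values were positive with a median of 0.17. Cyp4a12a, a further omega-hydroxylase, stood at 627, 431 and 444 CPM in wild type livers and 695, 676 and 464 CPM in knockout-labelled livers (log2 fold change 0.29, SE 0.19). Its near copy Cyp4a12b had a log2 fold change of 0.34 (SE 0.12), so the sign of Cyp4a10 and Cyp4a14 was not that of the whole family.

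Gene lists for fasting and feeding were read in the same libraries. Of 15 fasting-induced genes tested outside the 9, 12 values were positive and 3 negative, with a median of 0.25, and edgeR, DESeq2 and limma-voom called 0. At an unadjusted edgeR p under 0.05, 1 was higher and 0 lower, beside 2.95% and 2.2% of all genes. Pck1, the gene for the gluconeogenic enzyme PEPCK, stood at 337, 1216 and 2176 CPM in wild type livers, and at 2157, 2179 and 2639 CPM in knockout-labelled livers (log2 fold change 0.90, SE 0.68). Wild type replicate 1 was the lowest library for Pck1 and the highest for Cyp4a10, and knockout-labelled replicate 3 was the reverse. Of 12 feeding-induced genes tested 12 values were negative with a median of -0.68, 8 were lower at an unadjusted p under 0.05 (2.2% of all genes), and edgeR and limma-voom called 0. DESeq2, which called 0.233% of all genes, called 6 here, which were Acaca, Acacb, Acly, Fasn, Me1 and Scd1.

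List means per library set these readouts side by side. The mean deviation of the 9 genes was 0.32, 0.06 and 0.42 in wild type livers and 0.13, -0.28 and -0.65 in knockout-labelled replicates 1, 2 and 3. For the feeding-induced list it was 0.37, 0.00 and 0.66 in wild type livers and -0.34, -0.44 and -0.25 in the knockout-labelled group. For the fasting-induced list it was -0.40, -0.45 and 0.29 in wild type livers and 0.22, 0.06 and 0.29 in the knockout-labelled group. The feeding-induced means did not overlap between the groups, while the 9 genes and the fasting-induced list each overlapped. The lowest mean of the 9 genes was in knockout-labelled replicate 3 and the highest in wild type replicate 3, and the fasting-induced mean was 0.29 in both.

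**Figure D5:**
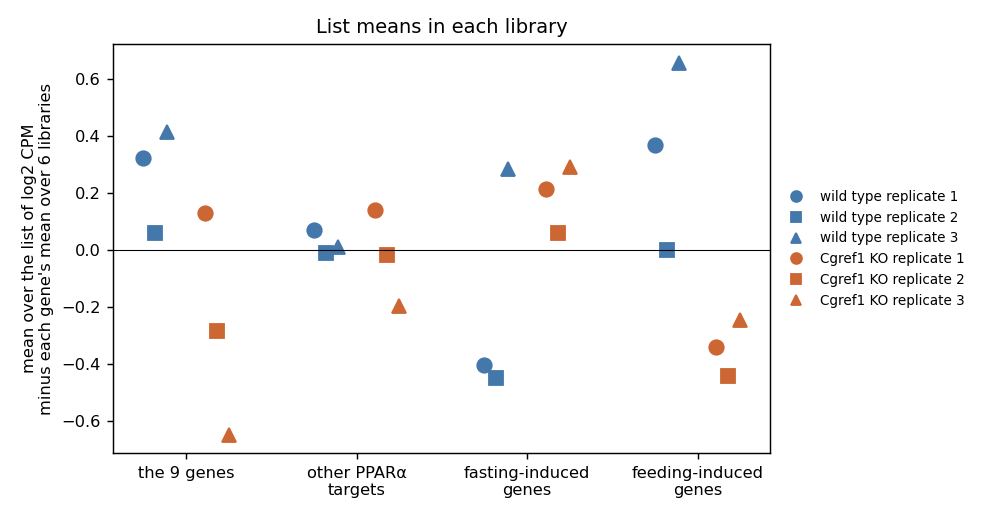
Mean over each list of log2 CPM minus each gene's mean over the 6 libraries (vertical axis) for the 9 genes, other PPAR alpha targets, fasting-induced genes and feeding-induced genes, with a point per library (color, genotype; shape, replicate number). The 9 genes spread from 0.42 to -0.65, and the other PPAR alpha targets from 0.14 to -0.20.

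Likeness to the mean profile of the 9 genes was measured over the 6 libraries as the mean absolute difference in centred log2 CPM, among 8819 other genes with a mean of at least 5 CPM. Among the nearest were the carboxylesterase gene Ces1e at 0.073, the carnitine acetyltransferase gene Crat at 0.075, the pantetheinase gene Vnn1 at 0.078 and Carmil1, which encodes a regulator of actin filaments, at 0.088. The median gene differed by 0.32. Crat and Vnn1 are both on the list of other PPAR alpha targets. Vnn1 stood at 64.9, 50.7 and 58.8 CPM in wild type livers and 54.4, 46.1 and 31.2 CPM in knockout-labelled livers, so its groups overlapped through knockout-labelled replicate 1, as those of Cyp4a10 did. These genes were picked for their likeness, which is given without a test.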

How the data were processed

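RNA from 3 wild type and 3 knockout-labelled livers was enriched for messenger RNA and sequenced as circular single-stranded DNA, per the labels' protocols. The submitters' processing notes list HISAT, Bowtie2, RSEM and DESeq2 with no version, role or build; settings and strand handling are likewise not given. Per the file headers, the deposited values are unnormalized expected counts for each gene in each library, and FPKM and TPM for the same libraries. The authors' own genotype comparison in that table, per the file headers, holds a log2 fold change with the p-value and q-value of DESeq2, and is printed only where that table is named. Chromosome accessions in the table are those of GRCm38, and 15799 of 15803 matched genes stood on the same chromosome in RefSeq GRCm38.p6, so coordinates are given as GRCm38. A second entry under the symbol Plin2 was kept apart by its gene number.

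Expected counts were rounded to whole numbers, filtered with filterByExpr (minimum count 10) and scaled by TMM. CPM values use these scaled totals. The genotype comparison used the quasi-likelihood test of edgeR 4.0.16 under R 4.3.3, in its robust form and with no block, adjusted by Benjamini-Hochberg over 12033 genes at a threshold of 0.05. Centred log2 CPM used a prior count of 2. Depth was even, at 17627734 to 18366443 counts a library. The edgeR steps were also run on simulated counts, drawn independently for each library and so without the link between same-numbered libraries. The outcome is not reported here. The genes, lists and alternatives were chosen with earlier results of these data known. In each list the text names the 2 members with the highest mean and the 2 with the smallest p, with further ones marked or given as examples; the likeness rule is stated beside its result, and some genes these rules pick are not reported here. Alternatives were other scalings and filters, DESeq2 1.42.0, limma-voom (limma 3.58.1), limma-trend on log2(FPKM + 1), log2(FPKM + 0.1) and log2(TPM + 1), the replicate number as a block, and libraries left out. Lists were described by counts and medians and not tested. Transcript identity was computed on the longest protein-coding transcripts of GENCODE M21 by local alignment.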

Additional observations from a re-analysis of the deposited data

How the results depend on the processing

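None of the 9 genes was called by any of the alternatives run, and Cyp4a10, Cyp4a14, Acot1 to Acot4, Cpt1a and Ehhadh kept the sign of their log2 fold change in all 18 of them. The lowest adjusted p reached was 0.141 for Ehhadh. Pdk4 changed sign: its log2 fold change ran from -0.61 to 0.21 when 1 library was left out and was 0.55 without wild type replicates 1 and 3 together. With 1 library left out, Cyp4a14 ranged from -2.37 to -0.82, Cyp4a10 from -1.08 to -0.33, Acot3 from -1.61 to -0.80 and Ehhadh from -0.69 to -0.23. Over all genes, 1 was called in the fit reported, 28 by DESeq2, 0 with a mean of at least 5 CPM, 0 without wild type replicates 1 and 3, and 1 to 5 with 1 library left out; the lone wild type library left in the penultimate setting is assumed to vary like the others. The replicate numbers were not said to mark a shared litter or day. The deposited table does hold comparisons between same-numbered libraries, which were not used here. Within same-numbered pairs, Cyp4a10, Cyp4a14 and Ehhadh were lower and Cpt1a higher in every knockout-labelled library. The thioesterases and Pdk4 were mixed in direction over these pairs. Deviations of same-numbered libraries correlated across genes at 0.28, 0.06 and 0.35, and every library correlated best with its own number. The replicate block gave 34 calls over all genes and 0 among the 9. Scaling by library totals alone moved the median of all genes to -0.08 and that of the 9 genes to -0.50. Pdk4 had 24 to 66 counts a library and also a larger spread than 92.7% of genes of like abundance; for Cyp4a14 and Acot3 the spread between libraries leaves intervals of -3.79 to 1.19 and -2.64 to 0.22.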
